A study of Arabidopsis thaliana with 9 samples.

Results

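The plastid genes rpoA, rpoB, rpoC1 and rpoC2 encode the core subunits of the plastid-encoded RNA polymerase (PEP), which transcribes the photosynthesis genes of the chloroplast. Each gene was taken as the probe set of the ATH1 array that has its symbol, written exactly so, as the single gene in the platform's annotation. This gave 1 probe set per gene, 4 of 22746 tested, beside 65 probe sets of other plastid-encoded genes. The arrays were hybridized with total RNA of whole Arabidopsis thaliana seedlings of the Col-0 cultivar, kept for 3 days in darkness on MS medium and then for 6 h in light. The groups were untreated wild type (Col-0, n = 3 arrays), wild type with 10 µM gabaculine in the medium (GAB, n = 3) and the gun4-1 mutant without gabaculine (n = 3). Gabaculine inhibits the aminotransferase that forms 5-aminolevulinic acid (ALA), the precursor of chlorophyll and heme. GUN4 is a regulator of Mg chelatase, and gun4-1 is a single mutant allele in the Col-0 background, described by the study as a knock-down. GUN4 is not named in the annotation used, so the mutation was not checked on the arrays.

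PEP is a polymerase of bacterial type. RpoA is the alpha subunit on which the enzyme assembles, RpoB is the beta subunit, and rpoC1 and rpoC2 encode the parts of the bacterial beta' subunit, which is split in plants, with the catalytic centre formed by the beta and beta' parts. The enzyme needs sigma factors and further associated proteins that are encoded in the nucleus, and it becomes the main plastid polymerase when etiolated seedlings green in light. The genes rpoB, rpoC1 and rpoC2 form an operon that is transcribed by the nucleus-encoded plastid polymerase (NEP), an enzyme of phage type, so that NEP supplies the message for PEP. In the gene order of RefSeq (TAIR10.1) rpoC2 lies between rps2 and rpoC1, rpoB lies between rpoC1 and trnC, and rpoA lies apart from them, next to petD.

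The deposited values are normalized log2 signals, so that 1 unit is a doubling. Array medians lay between 6.41 and 6.57, and arrays of a group correlated with r between 0.996 and 0.997 across probe sets. The markers of green tissue RCA and LHCB4.2, for Rubisco activase and a light-harvesting protein, had signals of at least 13.14 on each array; 3 further listed markers of green tissue are unnamed here. EXPA7, a root hair expansin and the only named one of 4 listed root markers, had group means of 5.58 ± 0.13 (Col-0), 5.29 ± 0.11 (GAB) and 6.15 ± 0.31 (gun4-1) (SD, n = 3 each). It was higher in gun4-1 than in GAB (log2 difference 0.85, standard error 0.14, adjusted p = 0.0149 from limma), a call that was lost without any 1 of the GAB arrays, and the part of tissue proportions in the values of the rpo genes was not tested. In RNA of whole seedlings, fewer plastids or green cells and less RNA per plastid cannot be told apart. The labelling kit starts from the poly(A) tail, which plastid messages largely lack, so that these signals follow the part of each message that was primed.

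No rpo gene differed between the groups past the limits of the test. To pass, a probe set needed an adjusted p (limma, Benjamini-Yekutieli over all 22746) of no more than 0.05 together with a fold change over 1.5, or under 0.667. Of the 4 rpo probe sets 0 passed with GAB against Col-0, where 1.46% of all probe sets did. In gun4-1 against Col-0 it was 0 of 4 beside 6.9% of all, and in gun4-1 against GAB 0 of 4 beside 3.8% of all. In this fit, which has no term for the replicate number, the count at an unadjusted p of at most 0.05 was also 0 of 4 in each comparison. Of all probe sets 19.7%, 35.3% and 28.1% were at or under that p. The arrays of both groups overlapped for 4 of 4 rpo genes in each comparison, while they were without overlap for 24.0%, 36.0% and 29.8% of all probe sets. The adjusted p was 1 for each gene in each of the 3 comparisons. With 4 probe sets and these background shares, a count of 0 sets them apart from no other genes.

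rpoA gave log2 signals of 11.86, 11.05 and 11.19 on the Col-0 arrays (replicates 1, 2 and 3). With GAB they were 11.46, 10.87 and 11.26, and in gun4-1 they were 11.68, 11.28 and 11.81. The groups overlapped in every comparison, and the highest value of all was that of Col-0 replicate 1. The log2 fold change with GAB was -0.17 (standard error 0.21, 95% interval -0.63 to 0.28), a fold change of 0.888. In gun4-1 it was 0.22 (standard error 0.21, interval -0.24 to 0.68), a fold change of 1.16. Neither passed, and between gun4-1 and GAB the difference was 0.39 (interval -0.06 to 0.85), which did not pass either.

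rpoC1 gave 7.80, 7.28 and 7.60 in Col-0. The GAB arrays had 7.94, 7.25 and 7.25, and the gun4-1 arrays 7.75, 7.69 and 7.95. The lowest gun4-1 array lay above replicates 2 and 3 of both other groups, while replicate 1 of both other groups lay higher than it, so that the groups overlapped. With GAB the log2 fold change was -0.08 (standard error 0.18, interval -0.47 to 0.31). In gun4-1 it was 0.24 (standard error 0.18, interval -0.15 to 0.62), and against GAB it was 0.32 (interval -0.07 to 0.70). The log2 changes against Col-0, -0.08 and 0.24, are fold changes of 0.946 and 1.18. Both were smaller in size than the range of the single Col-0 arrays, which was 0.52 on the log2 scale.

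rpoC2 varied most between arrays of the same group. Its signals were 7.79, 6.67 and 6.97 in Col-0, 8.10, 6.75 and 7.27 with GAB, and 7.03, 6.51 and 7.03 in gun4-1. Replicate 1 stood above both other arrays in Col-0 and with GAB, where the values spanned 1.12 and 1.36, and in gun4-1, where they spanned 0.52, no array stood out upwards. The log2 fold change was 0.23 with GAB (standard error 0.32, interval -0.48 to 0.94) and -0.28 in gun4-1 (standard error 0.32, interval -0.99 to 0.42). It was -0.51 between gun4-1 and GAB (interval -1.22 to 0.19). The interval for GAB reaches past the upper fold limit and that for gun4-1 past the lower one, so changes of that size and direction are not excluded by these arrays. The same holds for rpoA, past the lower limit with GAB (-0.63) and past the upper one in gun4-1 (0.68). It also holds for rpoC1 in gun4-1, past the upper limit (0.62). Between gun4-1 and GAB the intervals of rpoA, rpoC1 and rpoC2 each reach past a fold limit. The GAB value was -0.13 without GAB replicate 1 and -0.01 without Col-0 replicate 2, and the gun4-1 value was 0.04 without Col-0 replicate 1.

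rpoB was dim. Its log2 signals were 3.30, 3.21 and 3.16 in Col-0, 3.38, 3.13 and 3.21 with GAB, and 3.31, 3.21 and 3.39 in gun4-1. Only 6.3% of all probe sets had a lower mean signal, and the pollen marker AT5G45880, not expected in seedlings, had group means from 4.29 to 4.51. No detection calls were used here, so it is not known whether the rpoB probe set measured its message at all. The log2 fold changes were 0.02 with GAB (interval -0.17 to 0.21) and 0.08 in gun4-1 (interval -0.11 to 0.28), and the standard error of 0.09 is that of a probe set near the low end of the scale, where RMA compresses differences. The narrow interval therefore does not bound the change of the rpoB message, although rpoB is the first gene of the operon whose other genes gave clear signals.

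**Figure D1:**
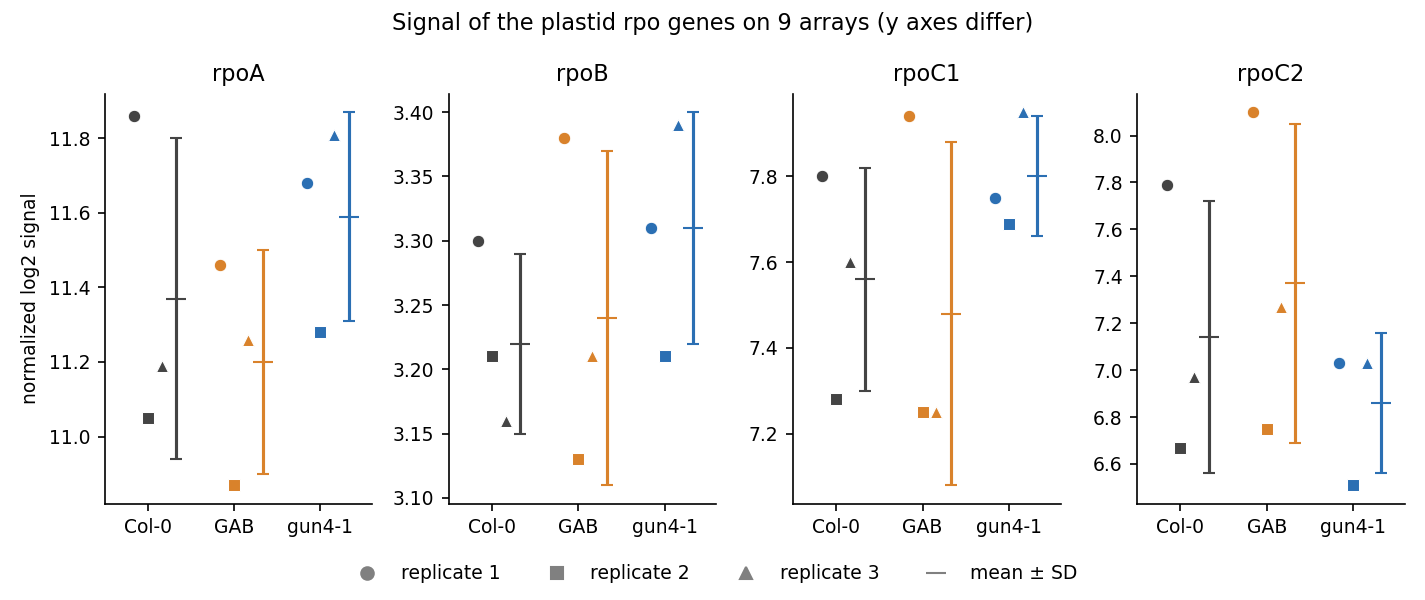
Normalized log2 signal (y axis, a separate range for each gene) of the 4 rpo genes on the 9 arrays, with points for single arrays, shapes for replicate numbers, and mean ± SD (n = 3) beside each group. The groups overlap for every gene, replicate 1 is the highest array of Col-0 and of GAB for all 4 genes, and the rpoB axis spans only values from 3.13 to 3.39.

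The precision differed between the genes. The pooled SD within groups was 0.34 for rpoA, 0.29 for rpoC1 and 0.55 for rpoC2, larger than in 99.1%, 98.1% and 99.8% of all probe sets, and 0.10 for rpoB. The median over all probe sets was 0.12 and that over the 65 other plastid-encoded ones 0.22. Of these 65, 1 had a larger SD than rpoC2, 11 a larger one than rpoA and 22 a larger one than rpoC1. At these standard errors, from the fit without the replicate number as a term, a gun4-1 difference from Col-0 would have passed from a log2 change of 0.99 for rpoA, 0.85 for rpoC1 and 1.53 for rpoC2, which are fold changes of 1.99, 1.80 and 2.89. For GAB against Col-0, where fewer probe sets passed and the limit on p was therefore stricter, the fold changes needed were 2.32, 2.05 and 3.68.

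**Figure D2:**
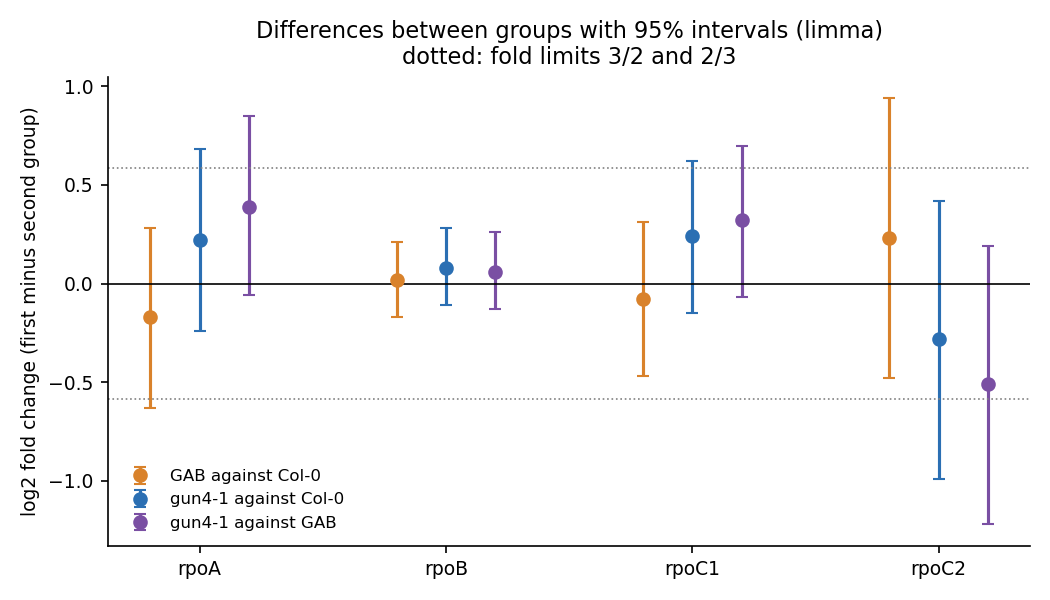
Log2 fold change (y axis) of each rpo gene in the 3 comparisons, with 95% intervals from limma (n = 3 arrays per group) and dotted lines at the fold limits. In this fit, without the replicate number as a term, every interval includes 0. That of rpoC2 with GAB runs from -0.48 to 0.94 and that of rpoB from -0.17 to 0.21.

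The arrays of a group did not scatter independently from gene to gene. In Col-0 and in GAB, replicate 1 had the highest signal of its group for 4 of 4 rpo genes, and in gun4-1 replicate 3 did, level with replicate 1 for rpoC2. Replicate 2 was the lowest GAB array and the lowest gun4-1 array for 4 of 4 and the lowest Col-0 array for 3 of 4. The other plastid-encoded genes leaned the same way. Of the 65, the highest array of the group was Col-0 replicate 1 for 54, which is 83.1% beside 30.8% of all probe sets, GAB replicate 1 for 41 (63.1% beside 34.6%) and gun4-1 replicate 3 for 48 (73.8% beside 39.6%). The median deviation of the 65 from their group means was 0.19 on Col-0 replicate 1 and 0.19 on gun4-1 replicate 3, and 0.09 on GAB replicate 1, while over all probe sets the median deviation lay between -0.01 and 0.02 on each array. The rpo genes deviated further on some arrays, with 0.65 for rpoC2 on Col-0 replicate 1 and 0.73 for rpoC2 on GAB replicate 1. With the array median of the 65 taken off each signal, the pooled SD within groups was 0.19 for rpoA, 0.22 for rpoC1 and 0.42 for rpoC2. Without this step it was 0.34, 0.29 and 0.55. For the dim rpoB it went the other way, from 0.10 to 0.18. These changes in spread were not tested.

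**Figure D3:**
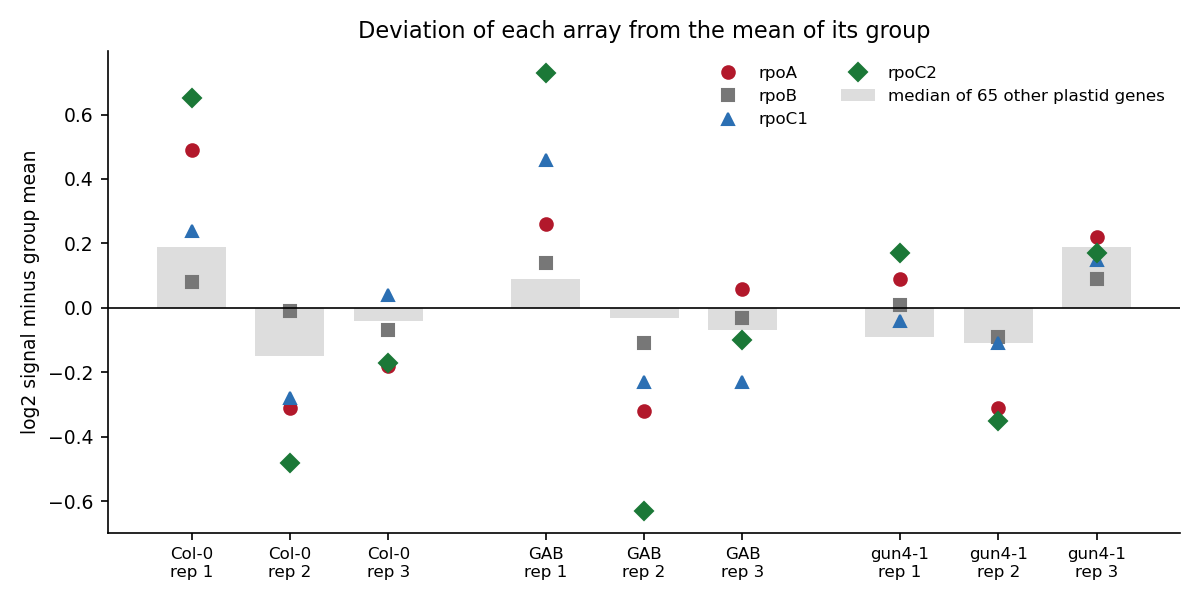
Log2 signal of each array minus the mean of its group (y axis) for the 4 rpo genes (points) and as the median of 65 other plastid-encoded probe sets (bars), for the 9 arrays. Points and bars lie above 0 on replicate 1 of Col-0 and GAB and on gun4-1 replicate 3, and below 0 on replicate 2 of each group.

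The rpo genes were also read against the other plastid transcripts of the same array, but the permutation test below could pass no difference. This measure is the log2 signal minus the array median of the 65 other plastid-encoded probe sets, and it was chosen after the values had been seen. The median itself was at 8.45 ± 0.31 for Col-0, 8.55 ± 0.07 for GAB and 8.36 ± 0.24 for gun4-1 (SD, n = 3 each). Relative to it rpoA was at 3.05, 2.83 and 2.86 in Col-0, at 2.84, 2.31 and 2.78 with GAB and at 3.34, 3.14 and 3.19 in gun4-1. The gun4-1 arrays lay above all others, by 0.31 over Col-0 (standard error 0.09) and by 0.58 over GAB (standard error 0.18). For rpoC1 the values were -1.0, -0.94 and -0.73 in Col-0, -0.68, -1.31 and -1.22 with GAB and -0.59, -0.45 and -0.67 in gun4-1, again without overlap, with differences of 0.33 over Col-0 (standard error 0.10) and 0.50 over GAB (standard error 0.21). rpoB in gun4-1 did not overlap with GAB (difference 0.25) and overlapped with Col-0, and rpoC2 overlapped in each comparison.

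With 3 arrays per group the smallest two-sided p of an exact permutation test is 0.1, which each of these 5 separations reached. Over the 12 comparisons the Benjamini-Hochberg adjusted p of each was 0.24. As 0.1 is already above the limit on adjusted p, no difference of any size could pass, and nothing is concluded from this test. Of the 65 other plastid-encoded genes 24.6% were likewise without overlap between gun4-1 and Col-0, 44.6% between gun4-1 and GAB, and 10.8% between GAB and Col-0. For the rpo genes it was 2 of 4, 3 of 4 and 0 of 4. In a fit of all probe sets with each array centred on this plastid median, 0 of 4 rpo genes passed in any comparison.

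The rpo genes were compared with one another within each array, but the permutation test used could pass no difference between groups. The difference of 2 log2 signals within an array removes whatever shifts both genes alike; its own level depends on the probes and has no meaning, and only its difference between groups is read here. For rpoA minus rpoC2 it was 4.07, 4.39 and 4.22 in Col-0 and 3.35, 4.13 and 3.99 with GAB. In gun4-1 it was 4.64, 4.77 and 4.78, above all 6 other arrays. The gun4-1 mean exceeded that of Col-0 by 0.50 (standard error 0.10) and that of GAB by 0.91 (standard error 0.24).

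Within the operon, rpoC1 minus rpoC2 was 0.01, 0.61 and 0.63 in Col-0 and -0.16, 0.51 and -0.01 with GAB. The gun4-1 arrays had 0.72, 1.18 and 0.92, again above all others, by 0.52 over Col-0 (standard error 0.24) and by 0.83 over GAB (standard error 0.24). By contrast rpoA minus rpoC1, genes of separate transcription units, differed by -0.02 between gun4-1 and Col-0 (standard error 0.17) and by -0.09 between GAB and Col-0 (standard error 0.20). Of the 6 pairs of rpo genes, 2 were without overlap between gun4-1 and Col-0 and the same 2 between gun4-1 and GAB, and 0 between GAB and Col-0. Among the 2340 remaining pairs of plastid-encoded probe sets 23.6%, 34.2% and 15.2% were without overlap in these comparisons. These include pairs of an rpo gene with another plastid-encoded gene. Each of the 4 separations had an exact two-sided permutation p of 0.1, the smallest that 3 arrays against 3 allow. The adjusted p of each was 0.45 over the 18 comparisons (Benjamini-Hochberg). Since 0.1 is already above the limit on adjusted p, no difference of any size could pass, and nothing is concluded from this test. The pairs were compared after the values had been seen. With each array left out in turn, rpoA minus rpoC2 ranged from 0.43 to 0.58 between gun4-1 and Col-0, and rpoC1 minus rpoC2 from 0.32 to 0.63. This was computed only for pairs without overlap, where leaving out 1 array cannot reverse the sign, so the stable sign is no support.

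**Figure D4:**
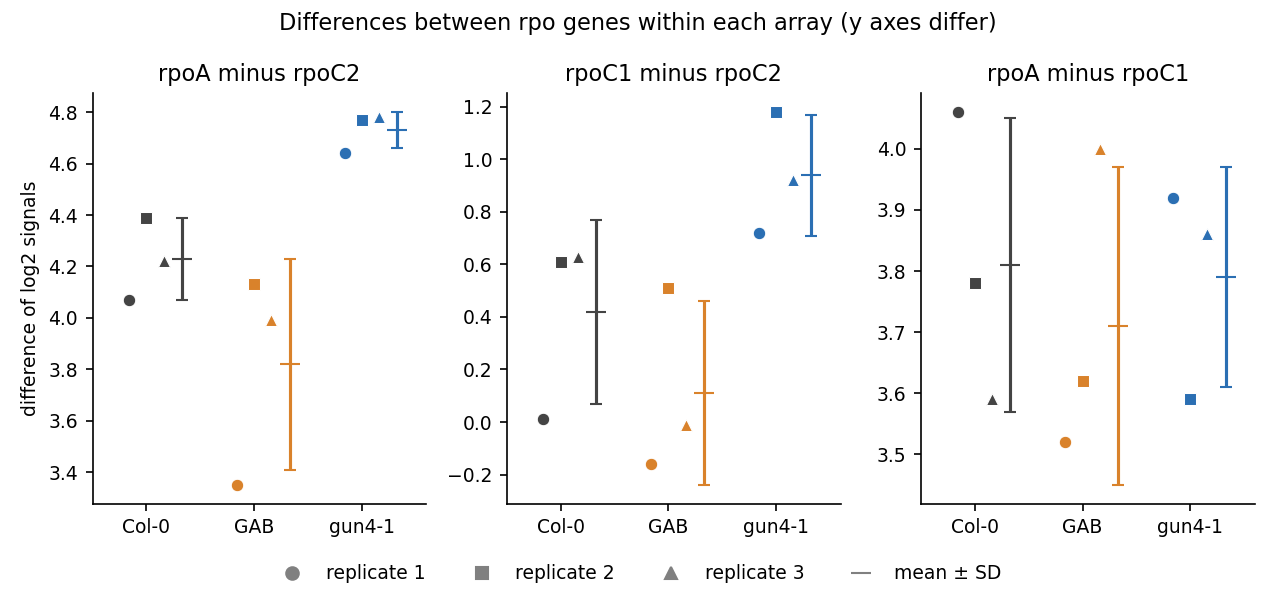
Difference of log2 signals within each array (y axis, a separate range for each pair) for rpoA minus rpoC2, rpoC1 minus rpoC2 and rpoA minus rpoC1, with points for arrays and mean ± SD (n = 3). The gun4-1 arrays lie above all others in both plotted differences that involve rpoC2 and among them in rpoA minus rpoC1. For rpoB minus rpoC2, not plotted, the groups overlap.

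The gene next to the operon, rps2, which encodes a protein of the small plastid ribosomal subunit, had log2 fold changes of -0.05 with GAB and -0.30 in gun4-1 (limma, adjusted p = 1 and standard error 0.12 for both). Its 3 gun4-1 arrays, at 6.72 to 7.04, lay below the Col-0 arrays at 7.08 to 7.22, a separation found for 36.0% of all probe sets in this comparison. petD, which precedes rpoA and encodes subunit IV of the cytochrome b6f complex, was dim (group means from 3.74 to 3.90) and had log2 fold changes of -0.04 and 0.13, neither of which passed.

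Of the listed genes that PEP transcribes, psbA alone passed the limits in gun4-1, where it was lower. It encodes the D1 protein of photosystem II, and its signals averaged 9.32 ± 0.17 for Col-0, 8.95 ± 0.02 for GAB and 6.75 ± 0.12 for gun4-1 (SD, n = 3 each). In gun4-1 the log2 fold change was -2.56 (standard error 0.10, adjusted p = 1.27e-07 from limma), to 0.169 of the Col-0 level, whereas with GAB it was -0.36, which did not pass (adjusted p = 0.486). The methods' t-test, adjusted in the same way, called 0 of the listed genes, psbA included. Of 27 PEP-transcribed photosynthesis genes, all measured, 1 was lower and 0 were higher in gun4-1 and 0 passed with GAB. The median log2 fold change of the 27 was 0.10 in gun4-1 and -0.05 with GAB, beside 0.15 and -0.03 for the 4 rpo genes and 0.02 and 0.00 for all probe sets. The comparisons with Col-0 share their control arrays.

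Plastid genes with promoters for both polymerases, mostly those of the ATP synthase and the NDH complex, gave 0 calls among 18 in either comparison with Col-0, and their median was 0.05 under GAB and -0.07 in the mutant. In gun4-1 ndhK was at -0.38, ndhJ at -0.35 and rps16 at 0.38, none of which passed. Of the genes that NEP transcribes outside the rpoB operon only accD, for a subunit of the plastid acetyl-CoA carboxylase, is named here. Its signals ran from 4.86 to 5.03 with GAB and from 4.49 to 4.58 in Col-0, with a log2 fold change of 0.43 (standard error 0.10, adjusted p = 0.226) that did not pass. In gun4-1 accD was at -0.03.

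Plastid ribosomal protein genes, several of which share a cluster with rpoA, had a median of 0.15 under GAB and 0.11 in the mutant over 15 probe sets, and 0 passed in either comparison with Col-0. Between gun4-1 and GAB 1 of the 15 passed, rps4, which was lower in gun4-1 (log2 difference -0.65, standard error 0.11, adjusted p = 0.0236). This call was lost without any 1 of the GAB arrays. Over all 65 other plastid-encoded probe sets 1 was lower and 0 were higher in gun4-1, and 0 passed with GAB, with medians of 0.02 and 0.01. The plastid gene cemA met the limit on adjusted p in gun4-1 against Col-0 (0.0216, limma) but not that on fold change, which was 0.708. Its log2 fold change was -0.50 (standard error 0.09).

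**Figure D5:**
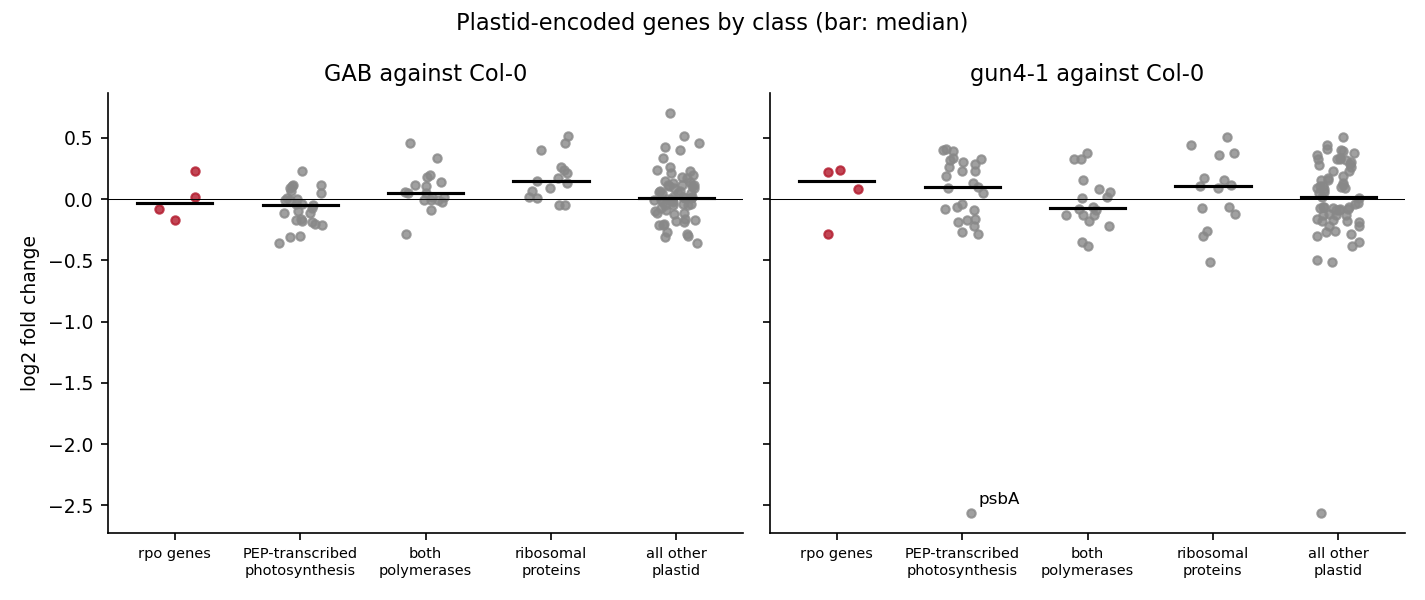
Log2 fold change (y axis) of plastid-encoded genes by class, for GAB against Col-0 and gun4-1 against Col-0, with a point for each probe set and a bar at the median. The 4 rpo genes lie between -0.28 and 0.24 in both comparisons, within the range of all 65 other plastid-encoded probe sets. With GAB, rpoA and rpoC1 lie below the lowest ribosomal protein gene (-0.05). psbA lies at -2.56 in gun4-1.

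Of the nuclear genes that make or serve these polymerases, 1 of 3 listed phage-type polymerases is named on the array, and none of the 6 sigma factors and 12 PEP-associated proteins, which are therefore not analysed here. The named polymerase, AT5G15700, encodes RPOTMP, a phage-type polymerase found in mitochondria and plastids. Its signals averaged 4.60 ± 0.11 for Col-0, 4.44 ± 0.27 for GAB and 4.42 ± 0.09 for gun4-1 (SD, n = 3 each). The log2 fold changes of -0.17 and -0.19 (limma, adjusted p = 1 and standard error 0.12 for both) did not pass.

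The probe sets with 1 named gene, 13509 besides the rpo genes, were ranked by the Pearson correlation of their 9 values with the mean of the 4 rpo genes. The 5 most alike were AT2G36030 (0.936), AT5G46730 (0.901), atpE (0.887), AT3G26070 (0.880) and AT1G44000 (0.876). They were chosen as the highest of many over 9 arrays that share the array effects described above, so no test is given. The coefficient was above 0 for 59 of the 65 other plastid-encoded probe sets, with a median of 0.46, beside a median of -0.02 over all 13509. Taken singly, rpoA was most like AT5G16430 (0.978), rpoB most like AT3G04490 (0.944), rpoC1 most like MPC (0.915) and rpoC2 most like AT4G10360 (0.962), followed by petA (0.939), which encodes cytochrome f.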

How the data were processed

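The authors calculated the deposited log2 signals from ATH1 arrays by robust multi-array average (RMA); the submitters' notes name Affymetrix Expression Console, and its version is not given in the sources used here. Background correction, normalization and probe summary are thus theirs, and no scanner data were used. Of the 22746 probe sets, 10166 have the same value on more than 1 array, among them rpoC2 on 2 gun4-1 arrays. Groups came from the sample titles. The study's methods state for all its experiments that they were repeated independently, while neither they nor the labels say what was separate for these arrays; p-values measure the spread between these arrays, part of which may be technical. Without 64 control probe sets, all were fitted jointly over the 3 groups in limma 3.58.1 under R 4.3.3 (6 residual and 5.91 prior degrees of freedom). The limits were those of the paper's methods. The number of arrays limits the precision. The fit was tested on simulated data. A single gene is named for 13513 probe sets, of which 13436 matched RefSeq (TAIR10.1), several genes for 503, and 8730 are unnamed here. Since the array's build was not stated, no coordinates are given. The genes and lists were chosen with earlier results of these data known. Named genes were the 4 members, list members past the limits or else the most changed in gun4-1, neighbours, and the highest correlations. cemA was named for meeting the limit on p alone. Exact permutation tests used scipy 1.17.1. Alternatives covered the adjustment, fold limits, array scaling, a filter on dim probe sets, leaving out _s_at and _x_at sets, the variance model and weighted arrays. They also covered groups in the fit, replicate block, the adjusted t-test and each array left out.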

Additional observations from a re-analysis of the deposited data

Results flagged for a closer look

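For 3 genes set beside the rpo genes the effects of gabaculine and of the mutation differed when gun4-1 was compared with GAB directly (limma, adjusted over all probe sets). psbA was lower in gun4-1 by a log2 difference of -2.20 (standard error 0.10, adjusted p = 8.18e-07). rps4 was lower by -0.65 (standard error 0.11, adjusted p = 0.0236), and EXPA7 was higher by 0.85 (standard error 0.14, adjusted p = 0.0149). The 3 genes were among 65 listed probe sets, and the calls of rps4 and EXPA7 were lost with any GAB array left out. Of the rpo genes 0 of 4 passed, beside 3.8% of all probe sets. The intervals of rpoA, rpoC1 and rpoC2 in this comparison each reach past a fold limit, so a difference of that size is not excluded.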

How the results depend on the processing

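Under each of 22 alternatives, 0 of the rpo genes that could be fitted passed in any of the 3 comparisons; rpoB dropped out with probe sets of a mean under 5. The smallest adjusted p of an rpo gene in any of them was 0.248. Signs of the values with GAB against Col-0 were not stable. With each array left out in turn rpoA ranged from -0.33 to 0.07, rpoB from -0.05 to 0.07, rpoC1 from -0.31 to 0.04 and rpoC2 from -0.13 to 0.55, and rpoB was at -0.08 with each array centred on the other plastid-encoded genes. In gun4-1 against Col-0 the value of rpoC2 ranged from -0.52 to 0.04 when an array was left out, that of rpoA from 0.06 to 0.47, of rpoB from 0.04 to 0.13 and of rpoC1 from 0.09 to 0.36, lowest for rpoA and rpoC1 without Col-0 replicate 2. In gun4-1 against GAB rpoA ranged from 0.23 to 0.55, rpoB from 0.01 to 0.14, rpoC1 from 0.20 to 0.54 and rpoC2 from -0.83 to -0.15.

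Of 65 probe sets on the lists set beside the rpo genes, 1 passed in gun4-1 against Col-0. This became 2 (psbA and EXPA7) after quantile normalization and 2 when arrays were centred on their medians. It was 0 with the adjusted t-test, and 1 to 2 with an array left out. In gun4-1 against GAB 3 passed, and 1 with fold limits of 2 and 0.5, and 0 with the adjusted t-test. It was 1 to 3 with an array left out, while psbA was called with each array left out. The call of rps4 was lost with either centring and that of EXPA7 in a fit of GAB and gun4-1 alone. rps4 was not called without any 1 of the GAB or of gun4-1 replicates 1 and 2, and EXPA7 not without any 1 of the GAB or gun4-1 replicate 3. Over all probe sets 332 (GAB), 1570 (gun4-1) and 864 (gun4-1 against GAB) passed, against 97, 512 and 324 with fold limits of 2 and 0.5, 158, 817 and 539 with arrays centred on plastid genes, and 1, 3 and 1 with the methods' t-test. Without a fold limit 418 passed with GAB and 2381 in gun4-1. At the main limits with an array left out, the count with GAB against Col-0 ranged from 181 to 316. It was lowest, between 181 and 219, without GAB replicate 1 or 2 or Col-0 replicate 2 or 3. Centring on array medians turned the gun4-1 split from 1014 lower and 556 higher to 768 lower and 859 higher. The cause was not tested.

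Arrays with the same replicate number in different groups had deviations from their group means that correlated between -0.07 and 0.26, over 0.1 in 6 of 9 pairs, beside 5 of 18 pairs with different numbers. Since not every pair was over 0.1 and no label ties a number to a shared batch, the numbers were not treated as pairs. With the replicate block 5 listed probe sets passed in gun4-1 against GAB (EXPA7, ndhD, psbA, psbM and rps4) and 0 rpo genes. The block lowered the standard error of rpoA from 0.21 to 0.12, of rpoC1 from 0.18 to 0.14 and of rpoC2 from 0.32 to 0.15. In gun4-1 against GAB rpoA was then at 0.39 (limma, adjusted p = 0.59) and rpoC2 at -0.51 (adjusted p = 0.469). Neither passed. The smallest fold changes given as able to pass, the intervals and the counts at an unadjusted p hold for the fit without the block.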
